A study of Homo sapiens with 8 samples.

Results

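The genes described here encode the pore-forming and auxiliary subunits of potassium, calcium, sodium and chloride channels in prostate cancer cells. They were chosen by symbol alone: every listed gene of the KCN, CACN, SCN, SCNN1, CLCN and HCN families. That gave 96 of the 16126 genes in 3 expression tables, out of 152 protein-coding symbols of these families in the RefSeq annotation. The RNA came from enzalutamide-resistant (ENZR) and enzalutamide-sensitive forms of 3 cell lines, in 8 bulk libraries, and the comparisons ask how the resistant form differs from its sensitive line. Enzalutamide blocks the androgen receptor and is given to patients with prostate cancer. C4-2BENZR (2 libraries) and C4-2B (2 libraries) are a bone-metastatic derivative of LNCaP, and cells of both groups carry a luciferase and a GFP transgene. CWR-R1ENZR and CWR-R1 (1 library each) derive from a relapsed prostate xenograft. VCaPENZR and VCaP (1 library each) derive from a vertebral metastasis. The labels give neither the drug dose nor the length of selection, and they do not say whether the resistant cells are clones. Each line stands for 1 tumour, and in bulk RNA fewer cells with a transcript and less transcript per cell cannot be told apart.

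Ion channels let ions cross membranes down their gradients. Inward rectifiers and tandem-pore (K2P) channels set the resting potential, while voltage-gated potassium channels end electrical activity. Voltage-gated calcium and sodium channels depolarise excitable cells, and their beta, alpha-2-delta and gamma subunits govern trafficking and gating. The epithelial sodium channel (ENaC) takes up sodium at the apical side of epithelia, HCN channels carry the pacemaker current, and CLC proteins move chloride at the surface or in endosomes and lysosomes. Prostate cancer cells do not fire like neurons, but channels of these families are known to bear on their membrane potential, calcium entry and growth.

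The library labelled VCaPENZR did not behave as a form of VCaP. ERG, which VCaP expresses from its TMPRSS2 fusion, was at 0.179 in the library labelled VCaPENZR (3 reads) and at 428 in VCaP. Over the 49 channel genes listed in all tables, log2 levels in that library had Pearson correlations of 0.853 (CWR-R1ENZR), 0.735 (CWR-R1) and 0.213 (VCaP), a description over genes that share each library's depth. Over all 12868 shared genes the correlations were 0.940 (CWR-R1ENZR), 0.890 (CWR-R1) and 0.728 (VCaP). Of the 49 channel genes, 29 (59.2%) were within 2-fold of CWR-R1ENZR, 29 (59.2%) of CWR-R1 and 21 (42.9%) of VCaP. Over all shared genes these shares were 86.5%, 80.8% and 60.7%. Each value from it below is that of "the library labelled VCaPENZR", and comparisons across lines are given with and without it. A level is the number of reads of a gene scaled to library size, close to CPM and not divided by gene length, so levels are compared between libraries and not between genes. The libraries held 14503586 to 20248655 reads in listed genes, so 3 reads, the floor used for a gene without a read, equal a level of 0.142 to 0.202. The epithelial keratin KRT8 was at 323 or more in every library, while KLK3, which encodes prostate-specific antigen, was at 0 in CWR-R1ENZR and at 0.774 in the library labelled VCaPENZR. Of the fibroblast, endothelial and blood markers that are listed, summed levels were at most 66.4, 27.5 and 18.2 in any library.

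Of the 96 genes, 58 were listed for C4-2B, 77 for CWR-R1 and 83 for VCaP. All told, 49 stood in all 3, 24 in 2 and 23 in 1. Channel transcripts made up 0.0879% and 0.0845% of the reads in listed genes in the C4-2BENZR libraries, against 0.0677% and 0.0666% in C4-2B. The share was 0.188% in CWR-R1ENZR against 0.132% in CWR-R1, and 0.188% in the library labelled VCaPENZR against 0.219% in VCaP. In each C4-2BENZR library 27 channel genes reached a level of 5, and in each C4-2B library 23 did. That number was 42 in CWR-R1ENZR and 41 in CWR-R1, and 34 in the library labelled VCaPENZR and 47 in VCaP. The lines differed in which channel genes they carried. VCaP had the neuronal calcium pore CACNA1B at 203, the acid-sensitive K2P channel KCNK3 at 168 and the M-current subunit KCNQ3 at 80.8. KCNK3 and KCNQ3 are listed for no other line, and CACNA1B was at 6.37 or below in every other library that lists it.

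**Figure D1:**
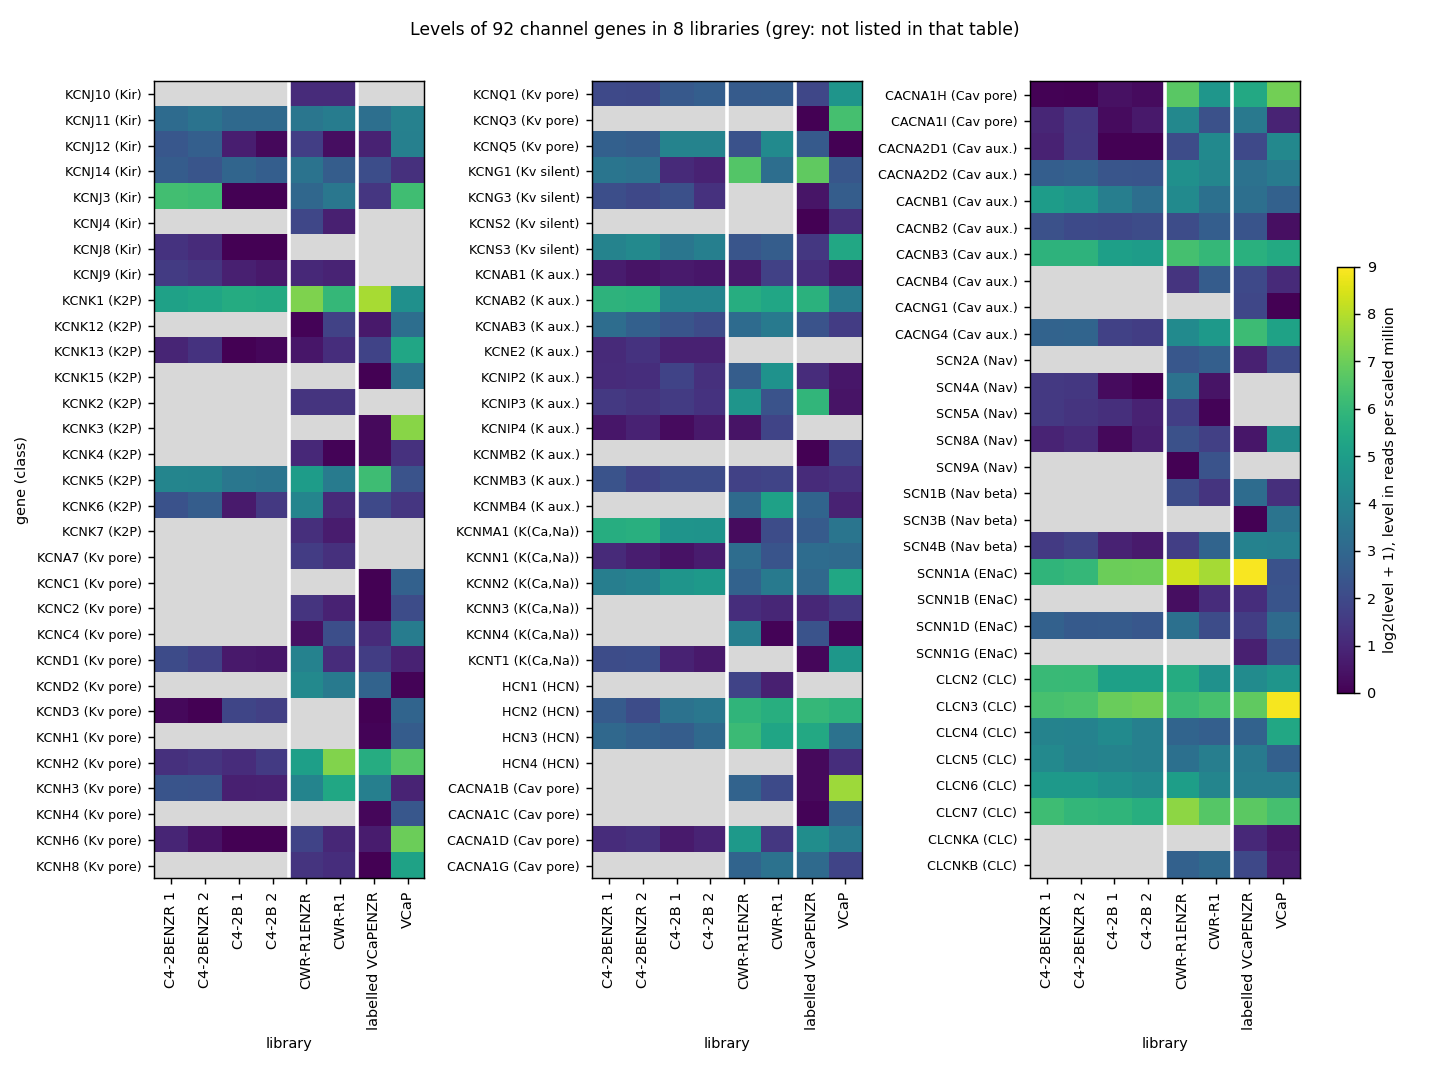
Level of 92 channel genes (rows, in 3 columns of panels) in each library (columns), coloured by log2(level + 1), with each library labelled ENZR left of its sensitive line and grey where a table does not list the gene. KCNJ3 is at 76.98 and 72.7 in C4-2BENZR and at 0 in C4-2B, and the library labelled VCaPENZR shares more of its pattern with the CWR-R1 pair than with VCaP.

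In C4-2BENZR the GIRK channel gene KCNJ3 was at a mean level of 74.8 where C4-2B had no read, the silent modifier KCNG1 rose 10.4-fold and the beta subunit gene KCNAB2 rose 3.40-fold. The M-current pore KCNQ5, the pacemaker channel HCN2 and the ENaC subunit SCNN1A fell between 2.10-fold and 2.75-fold. Of the 58 listed channel genes, 49 passed the low-value filter (a level of at least 1 in at least 2 libraries). Of these, 30 were called by limma at an adjusted p under 0.05, Benjamini-Hochberg over 13280 genes, or 61.2%, against 56.8% of all genes tested. By direction, 22 channel genes rose, or 44.9%, against 27.8% of all genes, and 8 fell, or 16.3%, against 29%. Calls of at least 2-fold on the log2(level + 1) scale were 16 of 49, or 32.7%, against 9.92% of all genes. Of those 16, 12 were higher (24.5%, against 6.16%) and 4 were lower (8.16%, against 3.77%). The higher ones include KCNJ3, KCNJ8, KCNJ12, KCND1, KCNH3, KCNT1 and SCN4A, and the lower ones KCND3. Each of these named genes passed the filter only through the group where it is high, so the filter favours a difference in them. The 2-fold shares were not taken again over genes at 1 or more in both groups. Of the 49, 11 passed the filter through C4-2BENZR alone and 1 through C4-2B alone, so the filter itself favours a difference in those 12. Besides the genes just named, the 11 hold KCNJ9, KCNE2, CACNA1D and SCN4B. Among the 37 at 1 or more in both groups, 13 rose (35.1%, against 26.1% of the 12608 genes at that level in both groups), 7 fell (18.9%, against 29.1%) and 17 did not pass. The median log2 change was 0.37 over the 49 channel genes, those 12 included, and −0.00075 over all genes. The filter also sets what a left-out library does. Without C4-2BENZR replicate 1, 18 of 38 tested members were called (11 higher), and without replicate 2, 19 of 38 (12 higher), since members at 1 or more only in C4-2BENZR then leave the test. The labels call the libraries biological replicates without saying what separates them, so p-values measure the spread between these libraries.

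**Figure D2:**
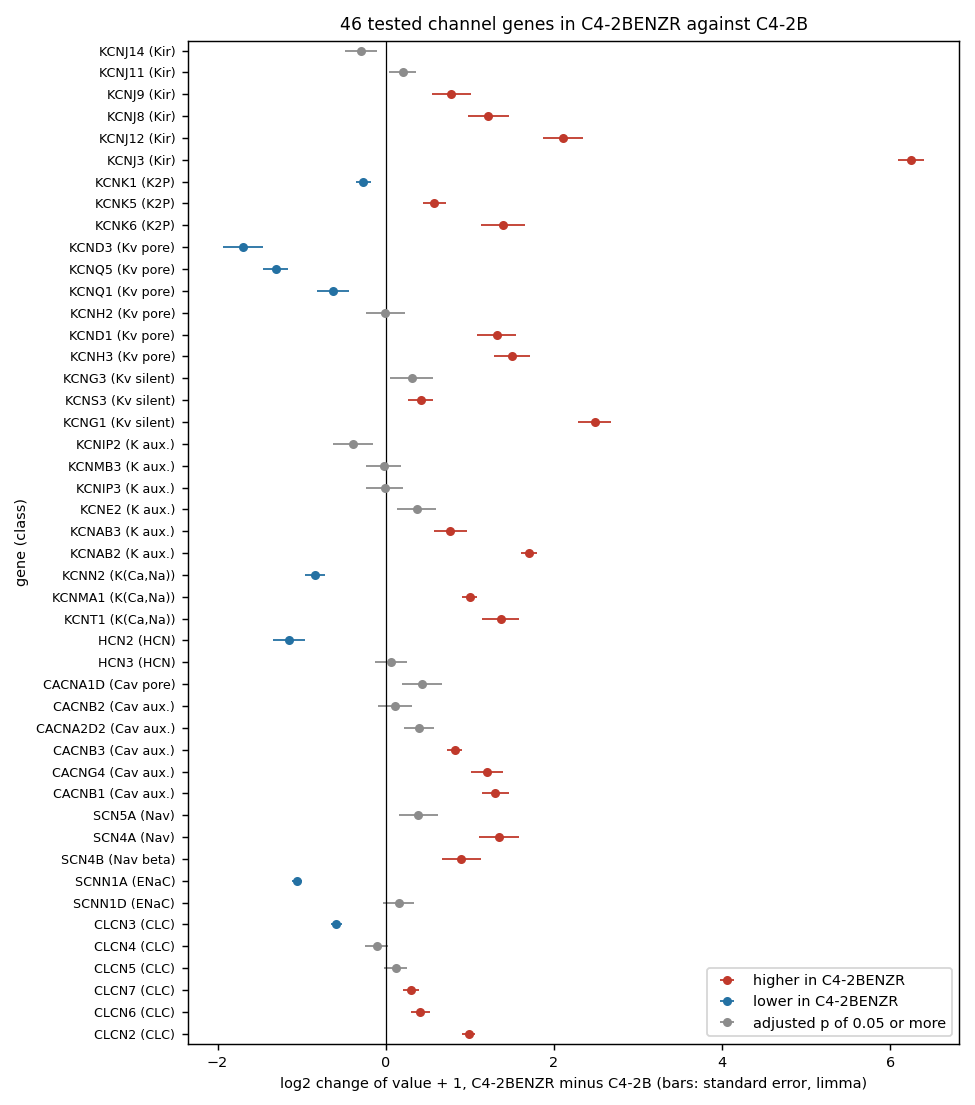
Log2 change of level + 1 in C4-2BENZR over C4-2B for 46 of the tested channel genes, grouped by class, with bars for the limma standard error (2 libraries per group). Red points were called higher, blue lower and grey not called; KCNJ3 lies at 6.24 and KCND3 at −1.70, the ends of the range.

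Among the inward rectifiers, KCNJ3 on chromosome 2 encodes a subunit of the G protein-gated (GIRK) channel, which slows the heartbeat and damps neurons when G protein beta-gamma subunits bind it. Its level was 76.98 and 72.7 in the C4-2BENZR libraries (1629 and 1255 reads), and 0 in both C4-2B libraries. The groups did not overlap, which also held for 77.4% of all 13280 genes tested and 79.6% of the channel genes. Against a floor of 3 reads per C4-2B library the level was at least 483-fold higher (log2 change 6.24 ± 0.16, SE, limma adjusted p = 1.55e-14). KCNJ3 protein reaches the surface only with another GIRK subunit. The partner KCNJ9 was at 1.94 and 1.62 in C4-2BENZR, against 0.722 and 0.518 in C4-2B, and was called higher (log2 change 0.78 ± 0.23, adjusted p = 0.00877, limma). The partners KCNJ5 and KCNJ6 are not among the listed genes. KCNJ12, a strong inward rectifier of heart and muscle, was at 4.44 and 5.56 in C4-2BENZR, against 0.670 and 0.155 in C4-2B (log2 change 2.10 ± 0.24, limma adjusted p = 1.29e-06). Its near-identical copy KCNJ18 may share its reads, so that value is uncertain. Of the pore subunits of ATP-sensitive channels, KCNJ8 was at 1.51 and 1.16 in C4-2BENZR with no read in C4-2B and was called higher from this low level (limma adjusted p = 0.00051). KCNJ11 was at 7.75 and 9.73 against 7.43 and 7.45 in C4-2B and was not called. Of these genes, KCNJ3, KCNJ8, KCNJ9 and KCNJ12 passed the filter only through C4-2BENZR, where they are high. The filter therefore favours a difference in each of them.

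Promoters of 3 genes are shown because these genes differ in pattern. KCNJ3 was at 0 in C4-2B and high in C4-2BENZR and in VCaP. The K2P channel KCNK5 was higher in C4-2BENZR, CWR-R1ENZR and the library labelled VCaPENZR than in C4-2B, CWR-R1 and VCaP. KCNQ5 was lower in C4-2BENZR and CWR-R1ENZR, but higher in the library labelled VCaPENZR than in VCaP. The promoters run from 250 bases before to 50 bases after the RefSeq start site (GRCh38.p14, given 5′ to 3′ on the gene's strand). KCNJ3 is at chr2:154698445-154698744 on the plus strand, KCNK5 at chr6:39229426-39229725 on the minus strand and KCNQ5 at chr6:72621814-72622113 on the plus strand. Capitals mark the androgen receptor half-site AGAACA and the GC box GGGCGG, on either strand.
KCNJ3: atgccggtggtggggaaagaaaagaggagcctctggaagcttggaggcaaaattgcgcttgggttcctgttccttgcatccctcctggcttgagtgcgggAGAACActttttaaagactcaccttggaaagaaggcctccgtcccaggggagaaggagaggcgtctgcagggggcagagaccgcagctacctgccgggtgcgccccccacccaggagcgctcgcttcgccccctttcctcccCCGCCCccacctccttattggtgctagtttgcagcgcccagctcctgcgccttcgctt
KCNK5: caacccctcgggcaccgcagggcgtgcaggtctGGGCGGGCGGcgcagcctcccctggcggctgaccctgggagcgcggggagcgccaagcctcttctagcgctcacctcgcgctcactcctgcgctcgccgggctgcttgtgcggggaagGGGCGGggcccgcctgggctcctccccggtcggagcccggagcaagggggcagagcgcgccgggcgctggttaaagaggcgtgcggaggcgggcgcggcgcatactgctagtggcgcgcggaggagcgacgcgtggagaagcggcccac
KCNQ5: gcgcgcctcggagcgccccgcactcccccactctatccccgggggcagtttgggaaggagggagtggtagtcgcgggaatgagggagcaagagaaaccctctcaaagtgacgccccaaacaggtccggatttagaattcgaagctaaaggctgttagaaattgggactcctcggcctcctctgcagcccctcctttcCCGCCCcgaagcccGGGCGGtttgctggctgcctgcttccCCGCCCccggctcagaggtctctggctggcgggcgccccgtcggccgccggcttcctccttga
In the KCNJ3 promoter the only half-site begins at position −150 relative to the start site, and a GC box on the reverse strand begins at position −8. The KCNK5 promoter has 3 GC boxes, 2 of which overlap by 2 bases, and the KCNQ5 promoter has 3. Neither holds the half-site. RefSeq promoters were found for 66 of the 96 channel genes. The half-site AGAACA (or TGTTCT) was in 6.06% of them, against 14.9% of all 27305 promoters. The GC box (or CCGCCC) was in 74.2%, against 44.6%. TATAAA (or TTTATA) was in 3.03%, against 12%, and TGACGTCA, the cAMP response element, which reads the same on both strands, in 1.52%, against 1.98%. Channel gene promoters were richer in G and C, with a median of 69.5% against 58.33%, and held a median of 28.5 CpG dinucleotides against 14. Such letter matches follow base composition and say nothing of binding.

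Voltage-gated potassium channel genes went both ways in C4-2B. KCNG1, on chromosome 20, encodes a silent subunit that forms no channel alone and changes the gating of the voltage-gated pores it joins. It was at 10.2 and 9.61 in the C4-2BENZR libraries, against 1.08 and 0.828 in C4-2B. That is 10.4-fold higher (log2 change 2.48 ± 0.19, SE, limma adjusted p = 1.72e-08). KCNS3, another silent subunit, was at 15.2 and 17.7 against 10.5 and 13.8 in C4-2B, called higher (log2 change 0.42). That call was lost with no filter (log2 change 0.42, limma adjusted p = 0.0539) and with DESeq2 (0.44, adjusted p = 0.0645), and without C4-2BENZR replicate 2 (0.31) or C4-2B replicate 1 (0.23). KCNG3 was not called. KCNQ5, a pore of the M-current that restrains repetitive firing, was at 5.72 and 5.33 in C4-2BENZR, against 15.2 and 15.1 in C4-2B, 2.75-fold lower (log2 change −1.31 ± 0.15, limma adjusted p = 1.68e-06). KCNQ1, the pore of the slow cardiac potassium current, was at 2.93 and 2.90 against 4.64 and 5.43 in C4-2B and was called lower, but it overlaps KCNQ1OT1, also listed, and the libraries' strand is not given.

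At lower levels, 3 voltage-gated pores differed by more than 2-fold on the tested scale; they fall outside the rule for named genes, which asks for a mean of 5, and were chosen after their values were seen. Each of the 3 passed the filter only through the group where it is high, so the filter favours a difference. KCND1, a pore of the fast A-type current, was at 3.17 and 2.32 in C4-2BENZR, against 0.516 and 0.466 in C4-2B (log2 change 1.32 ± 0.23, limma adjusted p = 0.000132). Its relative KCND3 was at 0.142 and 0 in C4-2BENZR against 2.68 and 2.28 in C4-2B (log2 change −1.70 ± 0.24, limma adjusted p = 1.29e-05). KCNH3, an ether-a-go-go-like pore of the forebrain, was at 4.02 and 3.88 against 0.722 and 0.776 in C4-2B, and it overlaps MCRS1. KCNH6, a close relative of the cardiac channel gene KCNH2, was at 0.898 and 0.347 in C4-2BENZR, with no read in C4-2B and below the filter. KCNH2 itself did not separate the groups, at 1.37 and 1.62 against 1.19 and 1.86 in C4-2B.

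The cytoplasmic beta subunit gene KCNAB2, whose protein has an aldo-keto reductase fold and helps voltage-gated pores reach the membrane, was at 55.6 and 52.3 in C4-2BENZR, against 15.9 and 15.8 in C4-2B. That is 3.40-fold higher, with 904 or more reads behind each C4-2BENZR value (log2 change 1.70 ± 0.10, SE; limma adjusted p = 3.62e-10). KCNAB3 also rose, 1.91-fold, while KCNAB1 stayed below the filter. KCNIP2 and KCNIP3, calcium sensors that bind A-type pores, were not called, nor were KCNE2 and KCNMB3. Among K2P channels, KCNK6 was at 3.83 and 5.33 against 0.567 and 1.81 in C4-2B and KCNK5, the alkali-activated channel of kidney tubules, was at 16.2 and 15.8 against 10.8 and 9.99 in C4-2B. Both were called higher (limma adjusted p = 0.00026 and 0.0018), and KCNK6 overlaps YIF1B. KCNK1, a weakly conducting K2P channel, was called lower at 34.8 and 38.2 against 45.2 and 43.0 in C4-2B, a 1.21-fold difference (log2 change −0.27). That call was lost with DESeq2 (−0.27), with total counts as the scaling (−0.17), and without C4-2BENZR replicate 1 (−0.20) or C4-2B replicate 1 (−0.23).

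Calcium-activated channels went both ways. KCNMA1, the large-conductance channel opened by voltage and calcium together, was at 48.0 and 49.7 in C4-2BENZR, against 24.6 and 23.4 in C4-2B, 2.04-fold higher (log2 change 1.00 ± 0.09, limma adjusted p = 1.10e-07). KCNN2, a small-conductance channel opened by calcium alone, was at 13.5 and 15.0, against 24.9 and 27.8 in C4-2B, 1.85-fold lower (limma adjusted p = 1.77e-05). KCNT1, a channel opened by internal sodium, was at 3.21 and 3.36 against 0.825 and 0.518 in C4-2B and was called higher. KCNT1 passed the filter only through C4-2BENZR, so the filter favours a difference. Of the HCN genes, HCN2 was at 4.96 and 3.30 in C4-2BENZR, against 9.59 and 10.97 in C4-2B, 2.49-fold lower (log2 change −1.15 ± 0.19, limma adjusted p = 6.93e-05). HCN3 overlapped between the groups, at 7.32 and 6.02 against 5.36 and 7.45 in C4-2B.

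Calcium channel genes differed in C4-2B mainly in auxiliary subunits. CACNB1, a cytoplasmic beta subunit best known from skeletal muscle, was at 30.2 and 25.8 in C4-2BENZR, against 13.4 and 8.59 in C4-2B, 2.55-fold higher (log2 change 1.30 ± 0.16, limma adjusted p = 4.06e-06). CACNB3 rose 1.79-fold, to 56.0 and 56.1 against 32.6 and 30.2 in C4-2B. CACNG4, whose protein also regulates AMPA receptors in neurons, was at 6.28 and 6.43, against 2.32 and 2.07 in C4-2B, 2.89-fold higher (limma adjusted p = 4.71e-05). CACNA2D1, the alpha-2-delta subunit bound by gabapentin, had 17 and 30 reads in C4-2BENZR and none in C4-2B, below the filter. CACNB2 and CACNA2D2 were not called. The pores that these subunits serve lay near or below the filter: CACNA1D was at 1.23 and 1.39 against 0.567 and 0.880 in C4-2B and was not called, and CACNA1H and CACNA1I did not pass the filter.

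SCNN1A, on chromosome 12, encodes the alpha subunit that ENaC needs to reach the membrane. It was at 58.8 and 62.1 in C4-2BENZR, against 125.6 and 128.2 in C4-2B, 2.10-fold lower with at least 1073 reads behind each value (log2 change −1.06 ± 0.06, SE; limma adjusted p = 7.97e-10). It overlaps LTBR, so reads of the shared stretch may belong to either gene. The delta subunit SCNN1D was at 5.91 and 4.81 against 5.003 and 4.40 in C4-2B and was not called, and the beta and gamma subunits are not in the table. Of the voltage-gated sodium genes, the muscle pore SCN4A was at 1.84 and 1.74 against 0.206 and 0 in C4-2B, and the beta subunit SCN4B at 1.89 and 2.43 against 0.825 and 0.569 in C4-2B. Both were called higher from low levels (limma adjusted p = 0.000176 and 0.00341). Both passed the filter only through C4-2BENZR, so the filter favours a difference. In the CLC family, CLCN2, a chloride channel of the plasma membrane, was at 68.4 and 66.0 in C4-2BENZR, against 33.4 and 33.5 in C4-2B, 2.01-fold higher (limma adjusted p = 2.22e-08). It overlaps FAM131A. The endosomal exchanger CLCN3 was at 82.0 and 86.2 against 122 and 132 in C4-2B, 1.51-fold lower, and the late endosomal and lysosomal exchangers CLCN6 and CLCN7 rose by 1.34-fold and 1.23-fold.

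Markers of neuronal and neuroendocrine cells moved with these genes in C4-2B. Of 12 such markers 6 are listed, and their summed level was 433 and 434 in C4-2BENZR, against 30.8 and 31.5 in C4-2B. Nearly all of the sum was SYT4, a synaptotagmin of secretory vesicles, at 381 in each C4-2BENZR library and at 5.36 and 5.28 in C4-2B. INSM1, a transcription factor of neuroendocrine cells, had no read in any of these libraries, and SYP was at 0.520 and 1.45 against 0.980 and 1.60 in C4-2B. The part of such cells in the channel genes was not tested.

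In CWR-R1ENZR, set against CWR-R1, KCNG1 was again far higher, the L-type calcium pore CACNA1D and the T-type pores CACNA1H and CACNA1I were higher, and the cardiac potassium pore KCNH2 was lower. With 1 library per group there is no test, and intervals are exact binomial (Clopper-Pearson, 95%) and cover counting error only. Of the 77 listed channel genes, 51 reached a level of 5 in either library. Of these, 23 differed by at least 2-fold on the log2(level + 1) scale, or 45.1%, against 20.1% of the 12462 genes compared. The 14 higher genes made up 27.5% against 9.79% of all genes, and the 9 lower ones 17.6% against 10.3%. The median log2 ratio was 0.30 over these channel genes and −0.02 over all genes compared. A gene under 5 in 1 library was counted only through the library where it is high, so the rule favours a difference in it. Such genes include KCNN4, SCN4A, KCNK6, KCND1, CACNA1D, CACNA1I and KCNIP3 among the higher ones. KCNQ5, CACNA2D1, CACNB4 and SCN4B are such genes among the lower ones. The shares were not taken again over genes at 5 or more in both libraries.

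KCNG1 was at 95.03 in CWR-R1ENZR and 8.64 in CWR-R1, 11-fold higher (interval 9.18 to 13.3). KCNH2, the pore of the rapid cardiac repolarising current that many drugs block, was at 33.0 in CWR-R1ENZR and 158 in CWR-R1, 4.79-fold lower (4.34 to 5.29). The M-current pore KCNQ5 was at 3.82 in CWR-R1ENZR and 18.8 in CWR-R1, 4.93-fold lower (3.69 to 6.67). KCNH3 was 2.56-fold lower, at 15.8 in CWR-R1ENZR and 40.5 in CWR-R1. KCND1 was at 15.0 in CWR-R1ENZR and 1.21 in CWR-R1, 12.4-fold higher (7.64 to 21.2).

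Of 5 auxiliary subunits of potassium channels compared, 2 were lower and 1 was higher in CWR-R1ENZR, against 10.3% and 9.79% of all genes compared. KCNMB4, a beta subunit of the large-conductance channel in brain, was at 7.71 in CWR-R1ENZR and 34.7 in CWR-R1, 4.5-fold lower (3.67 to 5.56). KCNIP2, which supports the cardiac A-type current, was at 5.23 in CWR-R1ENZR and 23.2 in CWR-R1, 4.44-fold lower, and it overlaps the listed KCNIP2-AS1. KCNIP3, also known as a calcium-sensitive transcriptional repressor, was at 25.1 in CWR-R1ENZR and 3.91 in CWR-R1, 6.41-fold higher (4.85 to 8.60). KCNN4, the intermediate-conductance calcium-activated channel of blood cells and epithelia, had 205 reads in CWR-R1ENZR and 1 in CWR-R1, a ratio of 204 (36.1 to 8082). The large-conductance pore KCNMA1 had 3 reads in CWR-R1ENZR and 48 in CWR-R1, under the level compared. The K2P channels KCNK6, KCNK5 and KCNK1 were all higher. KCNK6 was at 16.2 in CWR-R1ENZR and 1.08 in CWR-R1, 15.0-fold (9.03 to 26.6). KCNK5 was 2.49-fold higher, at 30.6 in CWR-R1ENZR and 12.3 in CWR-R1, and KCNK1 was 2.43-fold higher, at 151 in CWR-R1ENZR and 62.3 in CWR-R1. KCNJ3 was at 6.97 in CWR-R1ENZR and 10.7 in CWR-R1, 1.54-fold lower (1.19 to 1.99) and short of 2-fold.

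Of 5 calcium pores compared, 3 were at least 2-fold higher in CWR-R1ENZR, and of 7 auxiliary subunits 2 were lower. Over all genes compared, 9.79% were higher and 10.3% lower. CACNA1D and CACNA1I reached a level of 5 only in CWR-R1ENZR, and CACNA2D1 and CACNB4 only in CWR-R1, so the rule favours a difference in them. CACNA1D, an L-type pore of pacemaker and endocrine cells, was at 27.7 in CWR-R1ENZR and 1.75 in CWR-R1, 15.8-fold higher (10.6 to 24.4), and it overlaps CHDH. Of the T-type pores, which open near the resting potential, CACNA1H was at 102 in CWR-R1ENZR and 25.7 in CWR-R1, 3.95-fold higher (3.53 to 4.43), and CACNA1I was at 17.2 in CWR-R1ENZR and 3.64 in CWR-R1, 4.73-fold higher. The other pores did not reach 2-fold on the log2(level + 1) scale: the T-type CACNA1G was 1.47-fold lower, at 6.43 in CWR-R1ENZR and 9.45 in CWR-R1, and the N-type CACNA1B was at 6.37 in CWR-R1ENZR and 3.10 in CWR-R1. CACNA2D1 was at 3.22 in CWR-R1ENZR and 18.1 in CWR-R1, 5.62-fold lower (4.12 to 7.81), and the beta subunit CACNB4 was 3.33-fold lower, at 1.54 in CWR-R1ENZR and 5.13 in CWR-R1. Among sodium genes, SCN4A had 143 reads in CWR-R1ENZR and 6 in CWR-R1, 23.7-fold higher (10.6 to 65.6). SCN4B was 2.90-fold lower, at 2.21 in CWR-R1ENZR and 6.41 in CWR-R1. SCNN1A was at 328 in CWR-R1ENZR and 218 in CWR-R1, 1.501-fold higher (1.44 to 1.57), and SCNN1D was 2.76-fold higher, at 9.11 in CWR-R1ENZR and 3.31 in CWR-R1. CLCN2 was 2.05-fold higher, and the other 6 CLC genes compared did not reach 2-fold on that scale. The summed neuronal and neuroendocrine markers were at 661 in CWR-R1ENZR and 574 in CWR-R1, with SYT4 lower and TUBB3 higher in CWR-R1ENZR; their part in these differences was not tested.

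The VCaP table sets the library labelled VCaPENZR against VCaP, and its ratios rest on that library, whose ERG level goes against its label. Of 83 listed channel genes, 58 reached a level of 5 in either library, and 44 of them differed by at least 2-fold, or 75.9%, against 43.1% of 12502 genes. The 15 higher genes made up 25.9% against 21.1% of all genes, and the 29 lower ones 50% against 22%. The median log2 ratio was −0.99 over the channel genes and 0.00 over all genes. A gene under 5 in 1 of these libraries was counted only through the library where it is high, so the rule favours a difference in it. CACNA1B, KCNK3, KCNQ3, KCNH8, KCNJ3, KCNH6 and KCNT1 are among those counted through VCaP alone. SCNN1A, KCNK5, KCNIP3 and KCNG1 are among those counted through the library labelled VCaPENZR alone. The shares were not taken again over genes at 5 or more in both. Pores of excitable cells were among the lower genes. CACNA1B, the N-type pore of nerve terminals, had 3 reads in the library labelled VCaPENZR and 3562 in VCaP, a ratio of 1135 (388 to 5507). KCNK3, a resting potassium channel of neurons and heart, had 3 reads in the library labelled VCaPENZR and 2954 in VCaP, 941-fold lower (322 to 4568). KCNQ3 and KCNH8 had no read in the library labelled VCaPENZR and levels of 80.8 and 35.6 in VCaP, at least 452-fold and 199-fold lower against a floor of 3 reads.

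KCNJ3 was at 1.67 in the library labelled VCaPENZR and 74.5 in VCaP, 44.7-fold lower (30.8 to 67.5). The tables were normalized separately, and the level in VCaP stands beside 76.98 and 72.7 in C4-2BENZR. KCNH6 was at 0.595 in the library labelled VCaPENZR and 124 in VCaP, and KCNT1 had 2 reads in the library labelled VCaPENZR and 465 in VCaP. KCNS3, KCNK13, KCNK15, SCN8A and the sodium channel beta subunit SCN3B were also lower, by 15.6-fold or more. SCN3B and KCNK15 had no read in the library labelled VCaPENZR. The endosomal exchanger CLCN3 was at 111 in the library labelled VCaPENZR and 465 in VCaP, 4.18-fold lower (3.97 to 4.40). Of 14 voltage-gated potassium pores compared, 10 were lower and 3 higher by at least 2-fold, against 22% and 21.1% of all genes. Other genes were higher in the library labelled VCaPENZR. SCNN1A was at 484 in the library labelled VCaPENZR and 3.87 in VCaP, 125-fold higher (98.5 to 161). KCNK5 was at 72.9 in the library labelled VCaPENZR and 3.93 in VCaP, 18.6-fold higher (14.6 to 24.0). KCNK1 was at 225 in the library labelled VCaPENZR and 21.6 in VCaP, 10.4-fold higher.

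KCNIP3 was at 59.4 in the library labelled VCaPENZR and 0.398 in VCaP, 149-fold higher (72.0 to 371), and KCNG1 was at 109.6 in that library and 4.27 in VCaP, 25.7-fold higher (20.4 to 32.8). KCNAB2 was 4.32-fold higher, at 52.6 in the library labelled VCaPENZR against 12.2 in VCaP. KCNH3, KCND2, KCNMB4, CACNA1I and HCN3 were higher as well, by 4.39-fold to 109.8-fold, the last for KCND2 with 1 read in VCaP. For comparison, CWR-R1ENZR had KCNG1 at 95.03, SCNN1A at 328 and KCNIP3 at 25.1, in a table normalized separately. Of the 9 neuronal and neuroendocrine markers listed here, CHGA, SYT4 and INSM1 had no read in the library labelled VCaPENZR, against levels of 69.3, 72.3 and 15.5 in VCaP. Their summed level was 1232 in that library, of which ENO2 made up 1039, and 420 in VCaP, and their part in the channel ratios was not tested.

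Across the 3 tables, KCNG1 was the only one of the 49 shared channel genes at least 2-fold apart in the same direction in each. Its log2 ratios, ENZR over sensitive, were 2.48 in C4-2B, 3.32 in CWR-R1 and 4.39 for the library labelled VCaPENZR over VCaP. That is 2.04% of the channel genes, against 0.964% of the 12868 shared genes. Across the separately normalized tables, KCNG1 was at 9.61 or more in each library labelled ENZR and at 8.64 or less in each sensitive library. Treating the 3 tables as replicates, limma called 0 of 49 channel genes and 0 of 12868 genes (0%). The smallest limma adjusted p among channel genes was 0.838. At an unadjusted p under 0.05, 8 of 49 passed, or 16.3%, against 5.02% of all genes. KCNG1 had a mean log2 ratio of 3.40 ± 0.46 (SE, 3 ratios, limma unadjusted p = 0.000747 and adjusted p = 0.838). Among these ratios is that of the library labelled VCaPENZR over VCaP. Since that library did not behave as a form of VCaP, its ratio cannot be taken as an independent comparison of resistant with sensitive cells. The SE and p-values of this fit therefore do not rest on 3 such comparisons. Without the VCaP table the mean log2 ratio of KCNG1 was 2.90 (limma adjusted p = 0.860). The other genes that passed unadjusted in the single fit to the 3 ratios were KCNK5, KCNK6, KCND1, KCNAB2, CACNA1I, CACNB1 and KCNN2. KCNN2 was lower and the rest were higher in C4-2BENZR, CWR-R1ENZR and the library labelled VCaPENZR than in C4-2B, CWR-R1 and VCaP. Without the VCaP table, limma again called 0 of 49 and 0 of 12868, and 9 of 49 passed unadjusted, or 18.4%, against 5.70%.

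**Figure D3:**
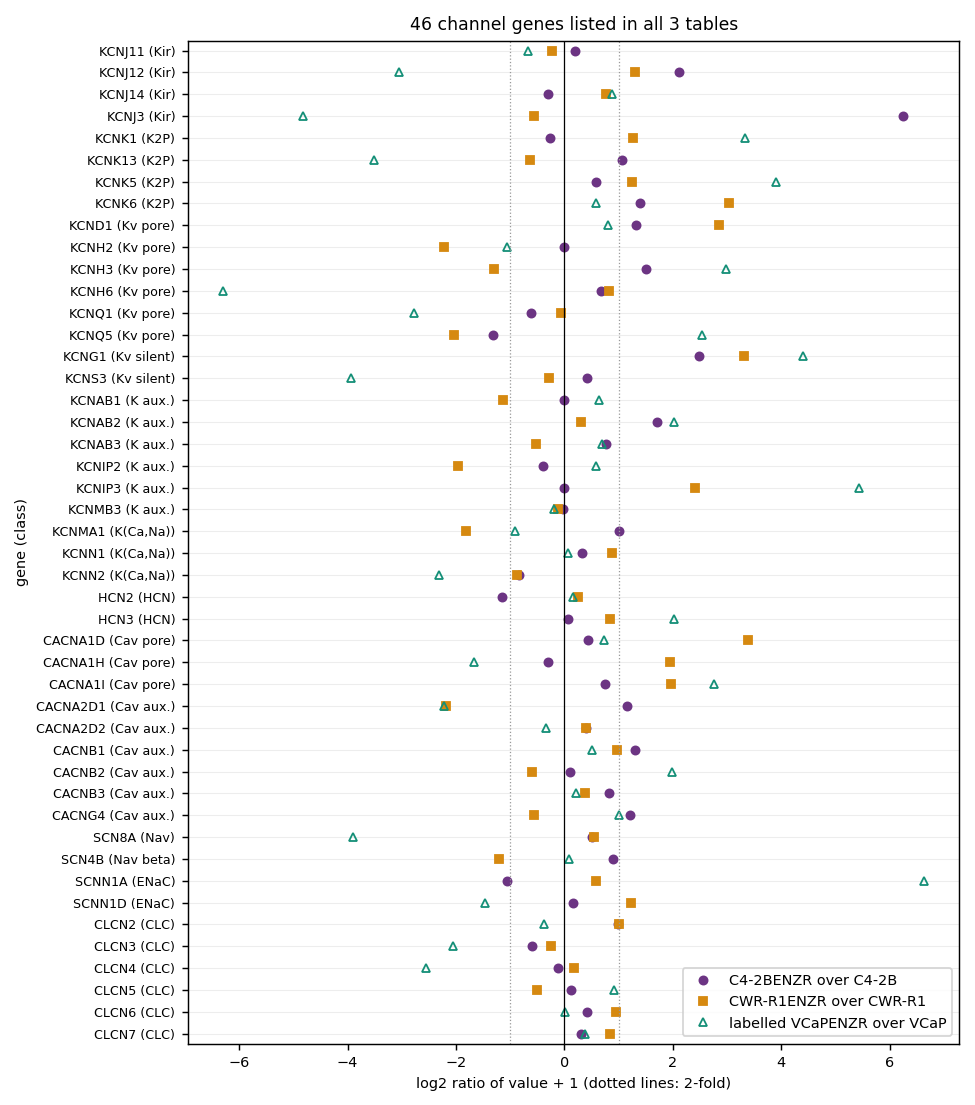
Log2 ratio of level + 1, ENZR over sensitive, for 46 of the channel genes listed in all tables (rows); circles are C4-2B (means of 2 libraries), squares CWR-R1 and open triangles the library labelled VCaPENZR over VCaP. KCNG1 lies to the right of the dotted 2-fold line in all 3, while KCNJ3 lies at 6.24, −0.56 and −4.82.

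C4-2B and CWR-R1, which share no library, had 5 of 49 channel genes at least 2-fold apart in the same direction, or 10.2%, against 2.01% of all shared genes. This count takes the log2 ratio of every shared gene, with no test and no minimum level. They were KCNG1, KCNJ12, KCNK6 and KCND1, higher in the ENZR form of both lines, and KCNQ5, lower in both. In the VCaP table KCNQ5 went the other way, at 4.82 in the library labelled VCaPENZR (81 reads) and 0 in VCaP. That is under the level compared there. KCNJ12 also went the other way in the VCaP table (log2 ratio −3.05). KCNJ12 had 32 reads in CWR-R1ENZR and 4 in CWR-R1, under the level compared in that table. Genes going opposite ways numbered 2 of 49, or 4.08%, against 1.55%: KCNH3 (log2 ratios 1.5 and −1.30) and CACNA2D1 (1.15 and −2.18). CACNA2D1 was not tested in C4-2B, where it lay below the filter. KCNJ3 had log2 ratios of 6.24 in C4-2B, −0.56 in CWR-R1 and −4.82 for the library labelled VCaPENZR over VCaP. SCNN1A likewise differed in direction, at −1.06, 0.58 and 6.64, and these differences between lines were not tested.

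**Figure D4:**
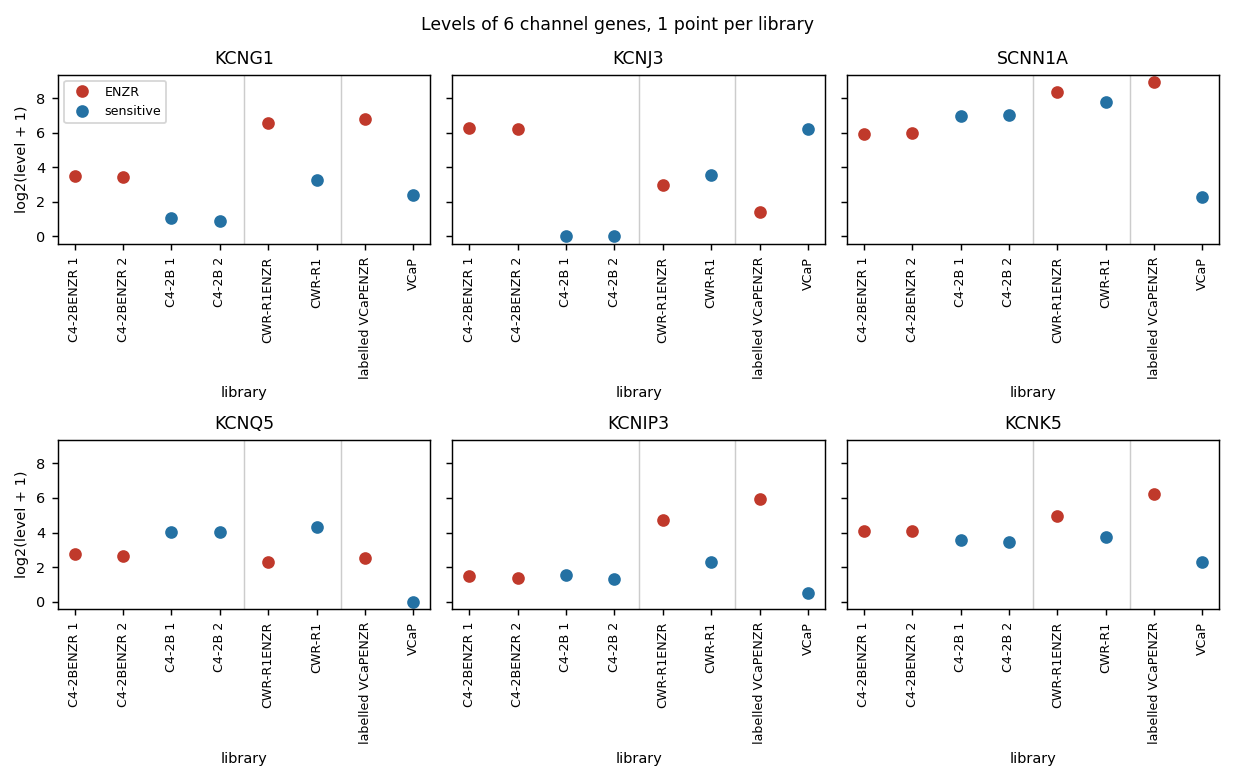
Level of 6 channel genes in each library, as log2(level + 1), with libraries labelled ENZR in red left of their sensitive line in blue and 1 point per library. KCNG1 and KCNK5 are higher in C4-2BENZR, CWR-R1ENZR and the library labelled VCaPENZR than in C4-2B, CWR-R1 and VCaP. KCNQ5 is lower in C4-2BENZR and CWR-R1ENZR, and higher in the library labelled VCaPENZR than in VCaP. KCNJ3 and SCNN1A go in opposite directions in C4-2B and in the VCaP table.

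Genes that act with these channels were taken from 6 lists, given as counts without a test of the list. In C4-2B these stand beside 27.8% of all tested genes called higher, 29% called lower and a median log2 change of −0.00075. Of 16 tested genes for G proteins and regulators acting on GIRK channels, 6 rose (37.5%) and 7 fell (43.8%) in C4-2BENZR (limma; median log2 change −0.09). The beta subunit GNB3 was at 7.03 ± 0.355 in C4-2BENZR and 1.24 ± 0.435 in C4-2B (SD, n = 2 each; limma adjusted p = 1.18e-06), and GNG4 rose as well. The gamma subunit GNG7 fell, at 1.70 ± 0.272 against 7.26 ± 0.237 in C4-2B, and RGS2, which shortens G protein signals, fell to 0.917 ± 0.0947 against 3.15 ± 0.666 in C4-2B. Of 18 genes of calcium release, store entry and extrusion, 8 rose (44.4%) and 6 fell (33.3%), with a median of 0.018. ATP2A3, a calcium pump of the endoplasmic reticulum, was at 9.97 ± 0.398 in C4-2BENZR with no read in C4-2B. ATP2A3 passed the filter only through C4-2BENZR and RGS2 only through C4-2B, so the filter favours a difference in both. The release channel ITPR1 was at 40.8 ± 0.438 against 13.3 ± 1.03 in C4-2B (limma adjusted p = 4.78e-09), and the surface pump ATP2B4 at 63.2 ± 8.10 against 28.9 ± 4.06 in C4-2B.

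Of 11 TRP and PIEZO channel genes, 3 rose and 3 fell in C4-2BENZR, 27.3% each way, close to the 27.8% and 29% over all genes. TRPV6, a calcium-selective channel long known in prostate cancer, was at 16.4 ± 1.84 in C4-2BENZR and 47.1 ± 5.76 in C4-2B (SD, n = 2 each; limma adjusted p = 1.68e-08), and it was at 0.238 in the library labelled VCaPENZR and 81.9 in VCaP. TRPM4, a calcium-activated cation channel, fell to 43.4 ± 5.78 against 71.6 ± 6.51 in C4-2B. Of 19 other anion channel genes, 8 rose (42.1%, against 27.8%) and 5 fell (26.3%, against 29%), with ANO9 at 8.76 ± 0.511 against 2.43 ± 0.359 in C4-2B and BEST1 at 0.536 ± 0.224 against 3.59 ± 0.174 in C4-2B. BEST1 passed the filter only through C4-2B, so the filter favours a difference in it. ANO9 was also at 39.7 in CWR-R1ENZR and 2.09 in CWR-R1.

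Of 13 genes of the sodium pump and cation-chloride cotransport, 8 rose (61.5%, against 27.8% of all genes) and 5 fell (38.5%, against 29%) in C4-2BENZR, with a median log2 change of 0.28, against −0.00075 over all genes. The pump subunit ATP1B1 was at 207 ± 5.93 in C4-2BENZR and 87.8 ± 0.185 in C4-2B (SD, n = 2 each; limma adjusted p = 2.70e-11). It was also at 1250.1 in CWR-R1ENZR and 420.5 in CWR-R1, and at 1941 in the library labelled VCaPENZR and 48.2 in VCaP. The pump regulator FXYD5 was at 17.7 ± 0.844 against 0.335 ± 0.401 in C4-2B, and at 25.9 in CWR-R1ENZR and 0.135 in CWR-R1. FXYD5 passed the filter only through C4-2BENZR, so the filter favours a difference in it. Of 13 genes of this list compared in CWR-R1, 7 were at least 2-fold higher (53.8%, against 9.79% of all genes) and 1 lower in CWR-R1ENZR (7.69%, against 10.3%; median log2 ratio 1.01, against −0.02). Of 23 channel regulators, 8 rose (34.8%, against 27.8%) and 9 fell (39.1%, against 29%) in C4-2BENZR. SGK1, a kinase that raises ENaC at the membrane, was at 39.9 ± 3.77 in C4-2BENZR and 4.91 ± 0.378 in C4-2B (limma adjusted p = 4.84e-11), in the same libraries in which SCNN1A was lower. SGK1 was at 21.0 in CWR-R1ENZR and 9.92 in CWR-R1, and at 21.2 in the library labelled VCaPENZR and 2.50 in VCaP. UNC80, a subunit of the sodium leak channel complex, was at 4.67 ± 0.545 against 0.697 ± 0.692 in C4-2B. It had no read in the library labelled VCaPENZR and was at 59.1 in VCaP, where 11 of 21 regulators compared were lower (52.4%, against 22% of all genes) and 5 higher (23.8%, against 21.1%; median −1.44, against 0.00).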

How the data were processed

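Total RNA was column-purified and treated with DNase I, and Novogene made the libraries and sequenced paired ends, per the labels' protocols. The submitters' processing notes name hg19; the aligner and the counting program were not given in the sources used here. Per the file headers, the authors deposited 1 table per line with a signal per library: whole reads divided by a scaled library size (100% of values whole within 0.02 reads), so reads were recovered and counted by gene. The plan named edgeR for raw counts and limma for scaled values, and limma was used.

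For C4-2B, limma 3.58.1 (trend, R 4.3.3) compared log2(value + 1) between 2 resistant and 2 sensitive libraries. It covered the 13280 genes that reached 1 in 2 or more libraries. Tests were two-sided, p-values were adjusted by Benjamini-Hochberg over those genes, and 0.05 was the threshold. The fit was tested on simulated data. In the other tables, ratios of value + 1 were counted at 2-fold among genes at 5 or more in either library. Across lines, limma was fitted to the 3 ratios.

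Named genes were up to 12 per direction with the largest change: in C4-2B those called, at least 2-fold and with a mean of 5 or more in the higher group, in the single-library tables those counted at 2-fold, plus KCNJ3, KCNG1, partners of named subunits and up to 4 genes of each further list. Other named channel genes were chosen after their values were seen. The members and lists were chosen with earlier results of these data known. Alternatives were edgeR 4.0.16 and DESeq2 1.42.0 on recovered reads, other scalings, pseudocounts, filters and fold thresholds, a replicate block, and each library or line left out. Promoters were taken from RefSeq (GRCh38.p14). Some genes counted above are not reported here one by one or drawn. The columns with the authors' own folds and p-values were left out.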

Additional observations from a re-analysis of the deposited data

Results flagged for a closer look

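Some channel genes went at least 2-fold in opposite directions in different lines, and none of these differences between lines was tested, since CWR-R1 and VCaP have 1 library per group. Values are the first line's log2 ratio, ENZR over sensitive, minus the second's. KCNJ3 differed by 11.07 between C4-2B (6.24) and the VCaP table (−4.82). SCNN1A differed by −7.69 between C4-2B (−1.06) and the VCaP table (6.64), KCNT1 by 5.98 (1.36 and −4.62) and KCNJ12 by 5.16 (2.10 and −3.05). KCNH3 was at 1.5 in C4-2B, −1.30 in CWR-R1 and 2.99 in the VCaP table, so it differed by 2.80 between C4-2B and CWR-R1 and by −4.29 between CWR-R1 and the VCaP table. Between CWR-R1 and the VCaP table, KCNMB4 differed by −4.11 (−2.03 and 2.07), CACNA1H by 3.61 (1.94 and −1.67) and SCNN1D by 2.70 (1.23 and −1.47). Of these, the KCNH3 difference between C4-2B and CWR-R1 is the only one that does not use the library labelled VCaPENZR. CACNA2D1 (1.15 in C4-2B and −2.18 in CWR-R1) is not among them because it was not tested in C4-2B, where it lay below the filter. Nor is KCNQ5 (−1.31 in C4-2B, −2.04 in CWR-R1 and 2.54 in the VCaP table), which was under the level compared in the VCaP table.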

How the results depend on the processing

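In C4-2B, limma called 30 channel genes (22 higher, 8 lower). On recovered reads edgeR called 30 and DESeq2 27 (21 higher, 6 lower). The limma shares were 44.9% higher and 16.3% lower, against 27.8% and 29% of all genes. With a level of at least 5 in at least 2 libraries, 28 were tested and 19 called (13 higher). Leaving out a library gave 18 to 28 calls, of which 11 to 22 were higher, the low counts without a C4-2BENZR library, when 38 rather than 49 genes were tested. KCNJ3 could not be fitted without either C4-2BENZR replicate, since it is then at 1 or more in 1 library. The replicate numbers do not pair libraries (correlation of deviations of same-numbered libraries 0.0502 over 13280 genes), and a replicate block gave 30 calls (22 higher, 8 lower). Over the named channel genes in C4-2B, 269 values kept their direction and side of the threshold under the alternatives, 8 (KCNK1 and KCNS3, 4 each) lost the call and 8 changed sign. None of the genes that changed sign was called. Called channel genes outside the named ones, KCNQ1 among them, were not followed gene by gene under the alternatives. Over the left-out libraries HCN3 ranged between −0.14 and 0.26, KCNH2 between −0.20 and 0.19 and KCNIP3 between −0.13 and 0.11. With total counts only, KCNH2 was at 0.056 and KCNIP3 at 0.053. Total counts moved the median of all genes to 0.10 in C4-2B and 0.10 in the VCaP table. In CWR-R1 a 3-fold threshold left 15 genes (9 higher) and no filter gave 15 lower ones, against 23 (14 higher, 9 lower). The counts in the VCaP table stayed within 1.5 times under each alternative. Across lines 0 channel genes were called under every alternative run, leaving out each line included. Depth limits what can be said of genes near the floor of 3 reads.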
